A study of Drosophila melanogaster and Drosophila virilis with 60 samples.

Results

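The genes described here are the 100 genes of *Drosophila melanogaster* with the sharpest high point in 48h pupae, out of 14127 genes measured across development (0.708%). They were chosen by a score: the mean deposited value at 48h minus the highest mean among embryo, larvae, P1, P2, P3, P4, P5 and adults. The 24h pupae did not enter the score. The deposited values are variance-stabilized read counts on a log2 scale, on which a gene without reads has the value 4.09 and 1 unit corresponds to a 2-fold change for well-expressed genes. Because 48h values chose the members, the height of the 48h peak over the other stages, over 24h and over adults is given below as a description and was not tested.

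RNA was taken from whole bodies of wild-type Oregon-R flies at 10 stages, with 3 libraries per stage, each a pool of many individuals and labelled as a biological replicate. The stages were embryos of 10 h, larvae, the morphological stages P1 to P5 from puparium formation onwards, pupae of 24 and 48 h of development, and adult males of 5 d. Sex was not distinguished before the adult stage, the larvae were 1 library each of the 1st, 2nd and 3rd instar, and the moment from which the pupal hours count is not given in the sources used here. In whole bodies, fewer cells of a type and less RNA per cell cannot be told apart.

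In the middle of pupal life the fly epidermis, having detached from the pupal cuticle, lays down the cuticle of the adult, with its hairs, bristles, lenses and sensory organs. The envelope and outer layers are made first and chitin-rich layers follow, each from its own set of secreted proteins. Among the best known are the Cpr proteins, which carry a chitin-binding domain and cross-link with chitin, and the Osiris proteins, an insect family of membrane proteins of cells that form cuticle. In the same period the indirect flight muscles assemble their sarcomeres from muscle-specific proteins.

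The 48h libraries held 8499050 to 9436957 counts, the 24h libraries 9282214 to 11961031 and the P5 libraries 7519948 to 8491333. Named ribosomal RNA pseudogenes, 16 in all, took 4.99, 14.4 and 0.945% of the counts in 48h replicates 1, 2 and 3, against at most 5.89% in any library of another stage. Replicate 2 was also the highest 48h library for 58 of the 100 members, replicate 1 for 22 and replicate 3 for 20. Whether the pseudogene share had a part in that order was not tested. With replicate 2 of every stage left out, the rule kept 96 of the 100 members.

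The 100 genes went from a trace to a sizeable part of the transcriptome between 24 and 48 h. They held 5.66 to 6.71% of all counts in the 48h libraries, and 5.71 to 7.06% once the ribosomal pseudogenes were set aside. In the 24h libraries they held 0.220 to 0.250%, in P5 0.100 to 0.112%, in P4 0.123 to 0.149%, in embryos 0.0654 to 0.0693% and in larvae 0.0147 to 0.0243%. In adult males the share was again 0.0438 to 0.0648%. No library outside 48h reached the range of the 48h libraries.

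**Figure D1:**
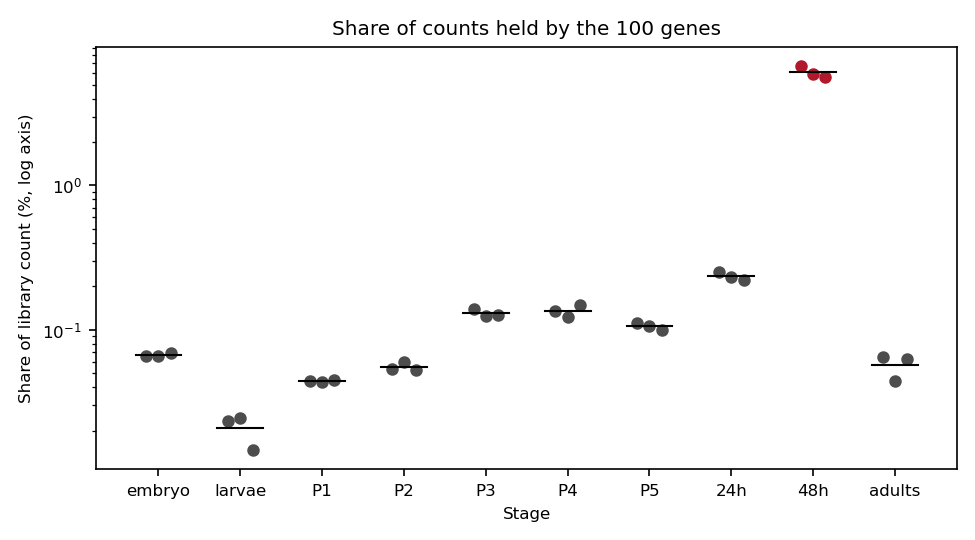
Share of each library's counts held by the 100 genes, in percent on a log axis, by stage; points are the 3 libraries of a stage and the line is their mean. The 48h libraries lie between 5.66 and 6.71%, while the 24h libraries, the next highest, lie between 0.220 and 0.250%.

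The median member had a value of 11.35 at 48h, with a range of 7.49 to 15.65, whereas the median of all genes at that stage was 7.26. At 24h the median member was at 5.28 and at P5 at 4.91, close to the value of an undetected gene. Counted as reads before division by the library's size factor, 56 members had at most 10 in each P5 library, 36 in each 24h library and 55 in each adult library. For most of these genes the level was low both at 24h and in adults of 5 d, the next stage sampled after 48h, so how long the high level lasted is not shown. The 48h mean exceeded the 24h mean by a median of 5.43, from 0.84 to 10.18, and the adult mean by a median of 6.09, from 2.44 to 10.90.

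All 100 genes had their highest stage mean at 48h, as did 6.04% of all genes, and the rule fixes this for every stage but 24h. In 99 members all 3 of the 48h libraries exceeded all 3 of the 24h libraries, where the share over all genes was 23.1%. The exception was *uncNacbeta*, in which 48h replicate 3 fell to 4675 normalized counts, inside the 24h range of 4507 to 5702. The 48h mean was above that at 24h by more than 2 units in 96 members and by more than 4 in 80. The 3 libraries at 48h had a median SD of 0.26 among the members and 0.23 among all genes.

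**Figure D2:**
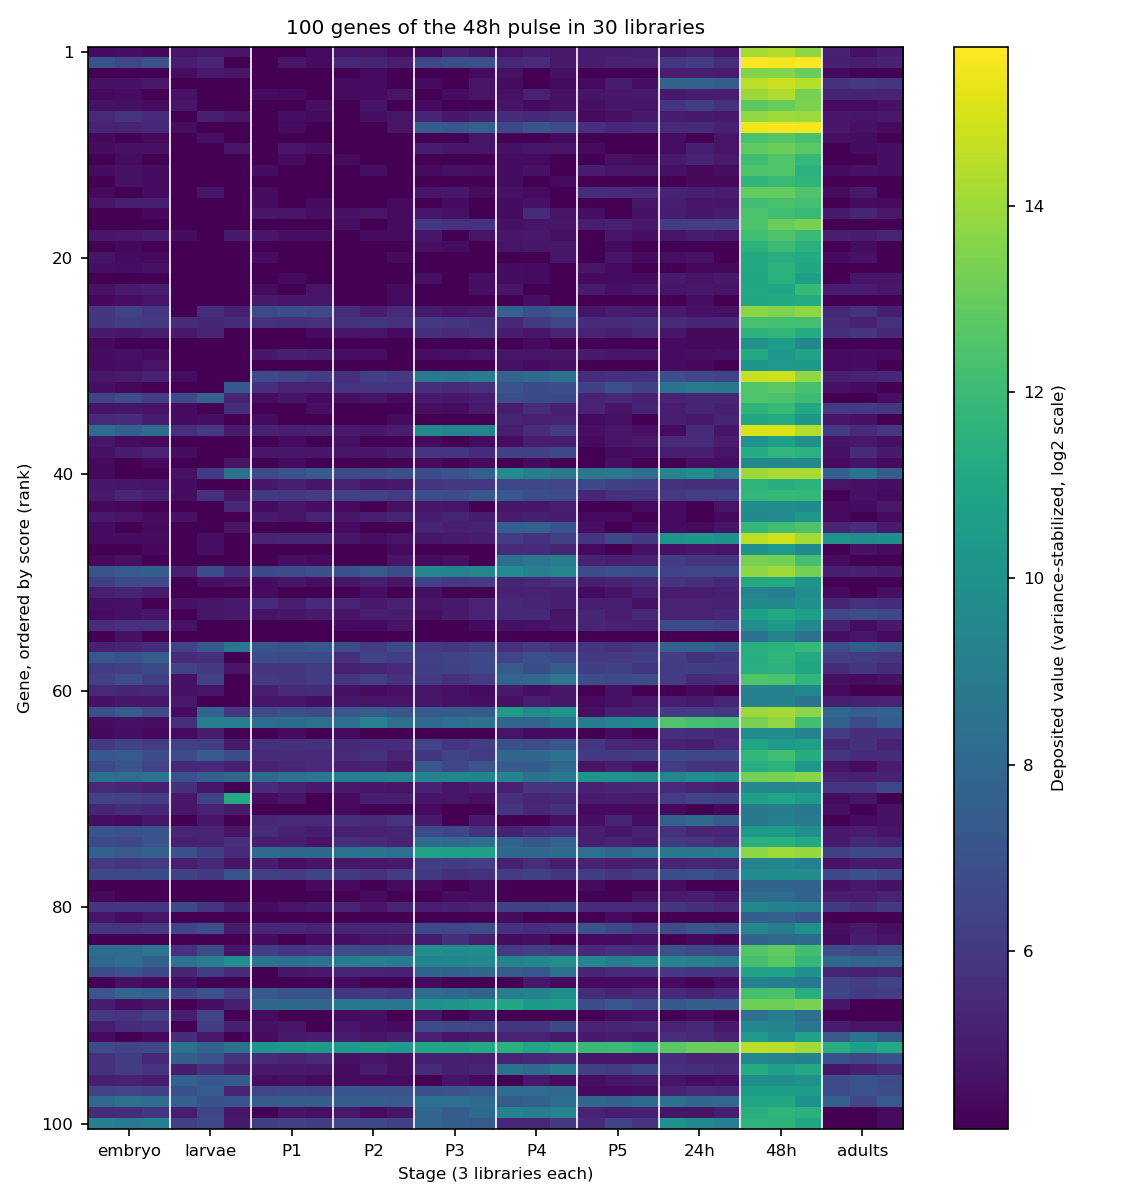
Deposited values (log2 scale, colour) of the 100 genes, ordered by score from rank 1 at the top to rank 100, in the 30 libraries grouped by stage. The 48h columns are the brightest in nearly every row, with faint bands at P3 and P4 and, for a few genes, at 24h.

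The scores ran from 9.05 to 2.37 with a median of 4.24, and there was no gap at the boundary. Just inside it were *Hil* (2.39), *CG14866* (2.38) and *dsx-c73A* (2.37), and just outside it *CG18735* (2.31), *CG13627* (2.29) and *CG15615* (2.29). The mean of *CG18735* was 11.64 at 48h but 14.34 at 24h, a stage that the score does not see.

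As a description, the choice of 100 genes was repeated on 2 replicates of each stage, and the score was computed in the remaining one. The genes chosen without replicates 1, 2 and 3 included 96, 96 and 95 of the members. In larvae the replicate numbers are the 1st, 2nd and 3rd instar, so the remaining larval library was of another instar. The score was above 0 in 100, 100 and 96 of the chosen genes for replicates 1, 2 and 3, against 6.92, 6.8 and 8.61% of all genes. It was above 2 in 95, 95 and 88, against 0.849, 0.899 and 0.878% of all genes. Of the 4 genes that failed in replicate 3, *Pxd*, a peroxidase gene, was a member, while *AOX2*, *CG17105* and *yellow-d2* were not. *Pxd* had 1663, 1872 and 1407 normalized counts at 48h, 2280 in the 3rd-instar library, and only 5.2 and 49.7 in the 1st and 2nd instar. It is the single member whose 48h libraries did not all lie above the 24 libraries of the 8 stages in the score.

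Osiris genes were the family with the most members. Among 23 Osiris genes measured, 8 were members, namely *Osi1*, *Osi3*, *Osi4*, *Osi8*, *Osi11*, *Osi12*, *Osi21* and *Osi22*, and all 23 together held 2.26% of the 48h counts. Relative to exon length, the 5 members with the highest 48h level were *CG3513* at 42403, *Osi3* at 34534, *Osi12* at 29271, *CG14770* at 22692 and *Act88F* at 14972 normalized counts per kb.

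*Osi12* had 53092, 47750 and 53269 normalized counts in the 48h libraries, 33.7, 40.9 and 21.0 at 24h, and 6.7, 9.4 and 9.7 at P5. On the log2 scale it stood at 15.65 ± 0.09 (SD, n = 3) at 48h and 5.91 ± 0.27 at 24h, the adults being at 5.11 ± 0.08. *Osi3* had 43263, 50803 and 49008 normalized counts at 48h and 16.9, 18 and 8.7 at 24h. For both genes the 48h libraries were separated from every other library by a wide gap. The 48h mean of *Osi12* was 9.73 above that at 24h, and that of *Osi3* was 10.18 above it, the widest difference of the 100 members.

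The other Osiris members ran at lower levels with the same profile. *Osi4* had 7149, 8781 and 6700 normalized counts at 48h and at most 9.0 in any 24h library. *Osi22* had 5232, 6351 and 5029 at 48h, 1.7, 0 and 3.6 at 24h, and none at P5. *Osi21* had 2162, 3026 and 2069 at 48h and at most 0.8 at 24h. *Osi11* had 2006, 2872 and 1641 at 48h and between 3.3 and 5.9 at 24h. All 4 had at most 9.0 in every library outside 48h.

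*Osi1*, *Osi3*, *Osi8* and *Osi12* also had a lower expression earlier in development. *Osi3* had 139, 120 and 175 normalized counts at P3 and 65.7 to 111 at P4, and *Osi12* 64.8 to 89 at P3 and 67.7 to 96.7 in embryos. *Osi1* had 5675, 8348 and 10314 normalized counts at 48h and also 32.9, 24.3 and 26.6 at P3, with 7.7, 9.4 and 4.4 at P5. *Osi8* had 3506, 4452 and 5511 at 48h and 158, 168 and 106 at P4, but at most 3.6 at P5 and 24h. In *Osi1* and *Osi8* the 48h libraries differed more among themselves than those of *Osi12*, with replicate 3 the highest, whereas for most members it was replicate 2.

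Most of the family lies in a row on chromosome arm 3R, between 6173549 and 6341424 in the BDGP6.54 annotation, with 20 genes of which 6 were members. *Osi3* (6215832 to 6218199) and *Osi4* (6218318 to 6221781) are adjacent, and *Osi8*, *Osi11* and *Osi12* fall between 6255175 and 6282495. *Osi22* lies further along the arm at 13290629 to 13291846, and *Osi21* on 2L at 11284327 to 11285706. The genes of the family, on the row and off it, did not share 1 profile. Of the 23, 13 had their highest mean at 48h, 7 at P3, 2 at P4 and 1 in the embryo. Some of these maxima were near the value of no reads. *Osi16* was at 4.99 in the embryo and 4.96 at 48h, and *Osi23* at 4.45 at 48h and 4.43 in larvae.

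Several Osiris genes with a P3 high point were near the value of no reads at 48h. *Osi15* went from 12.37 at P3 to 4.33 at 48h, *Osi18* from 11.22 to 4.38 and *Osi19* from 11.23 to 4.09. *Osi7* was high both times, at 15.60 at P3 and 15.95 at 48h, and so could not enter a list built on a single high point. *Osi14* and *Osi2* peaked at P4, with 13.29 and 12.95. The members on the 3R row thus lie among genes of the same family that were highest at P3 or P4.

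**Figure D3:**
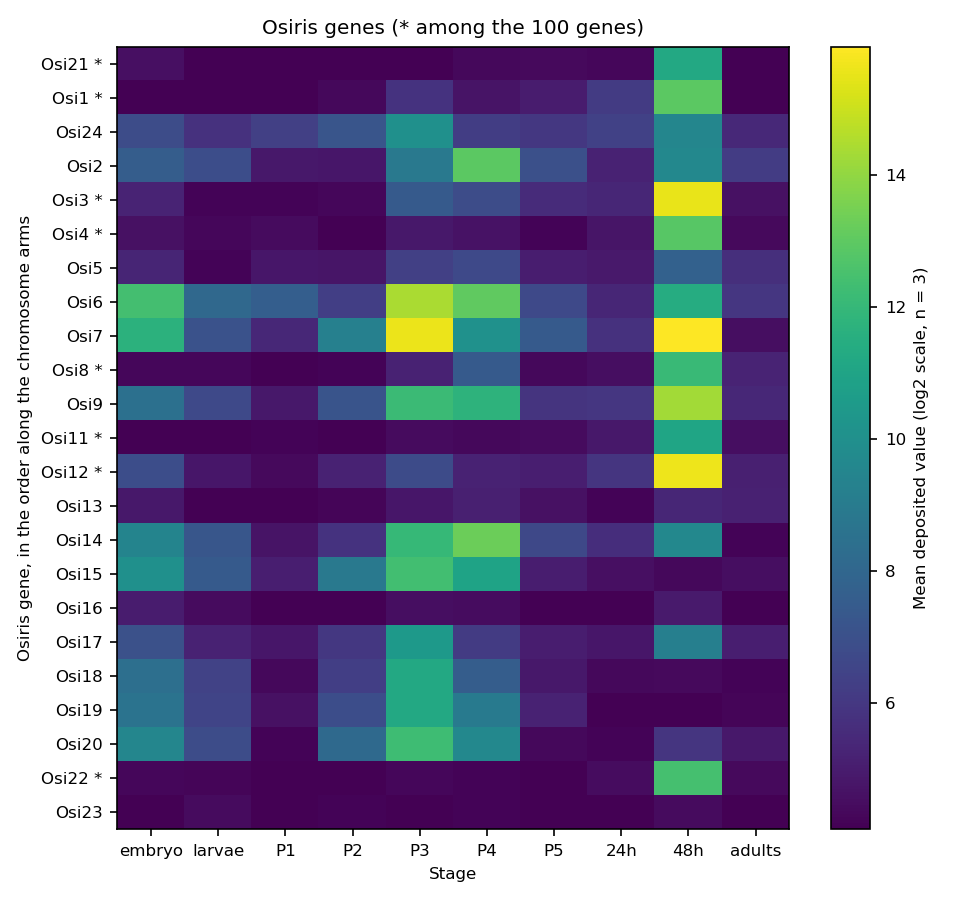
Mean deposited value (log2 scale, n = 3) of the 23 Osiris genes at each stage, in the order along the chromosome arms; an asterisk marks a member. The members are brightest at 48h, with 15.54 for Osi3 and 15.65 for Osi12, and fainter at P3 or P4 in some, such as 7.45 for Osi3 at P3 and 7.44 for Osi8 at P4, while Osi15, Osi18, Osi19 and Osi20 are bright at P3 and between 4.09 and 5.92 at 48h.

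Cuticle proteins contributed 7 members out of 131 listed: *Cpr49Ah*, *Cpr50Ca*, *Cpr66Cb*, *Cpr66D*, *Cpr72Ec*, *Cpr76Bc* and *resilin*. Of the 131 genes, 20 had their highest mean at 48h, or 15.3%, against 6.04% of all genes, and the others were highest at another stage. *Cpr76Bc*, the highest of the 7, had 23178, 27666 and 21620 normalized counts at 48h, after 189, 186 and 153 at 24h and 1.0, 7.3 and 1.8 at P5. It remained detectable in adults at 25.0, 36.6 and 29.2. Its rise was stepwise, with no overlap between P5, 24h and 48h.

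*Cpr66D* and *Cpr66Cb* had a lower high point at P4 before that at 48h, and some expression at other stages. *Cpr66D* had 1369, 789 and 1142 normalized counts at P4, only 1.9, 8.4 and 8.0 at P5, 34.6, 39.3 and 32.5 at 24h, and 16002, 17855 and 13219 at 48h. It was also found at 75.7 to 144 in embryos, 204 in the 2nd instar and 159 to 218 in adults. *Cpr66Cb* had 31.3 to 49.9 normalized counts in embryos, 71.2 to 82.7 at P1, 181, 87.9 and 132 at P4, between 3.8 and 6.3 at P5, and 13060, 11264 and 14151 at 48h. In both genes the P4 libraries did not overlap those of P5 or 24h. *Cpr49Ah* was also found in the 3rd-instar library, at 126, while the younger larvae had none; it had 335, 422 and 404 at 24h and 6009, 6893 and 5075 at 48h.

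*resilin* encodes the elastic protein of wing hinges and tendons. It had 846, 1233 and 715 normalized counts at 48h against 73.3, 73.7 and 55.7 at 24h and 13.5, 9.4 and 8.0 at P5. Its 48h level per kb of exon, 332 normalized counts, was low beside that of *Cpr66D* at 14214 and *Cpr76Bc* at 13142. *Cpr50Ca* and *Cpr72Ec* were at most 12.3 in each P5 and 24h library and between 2178 and 5484 at 48h, with *Cpr72Ec* persisting in adults at 33.6 to 37.9.

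**Figure D4:**
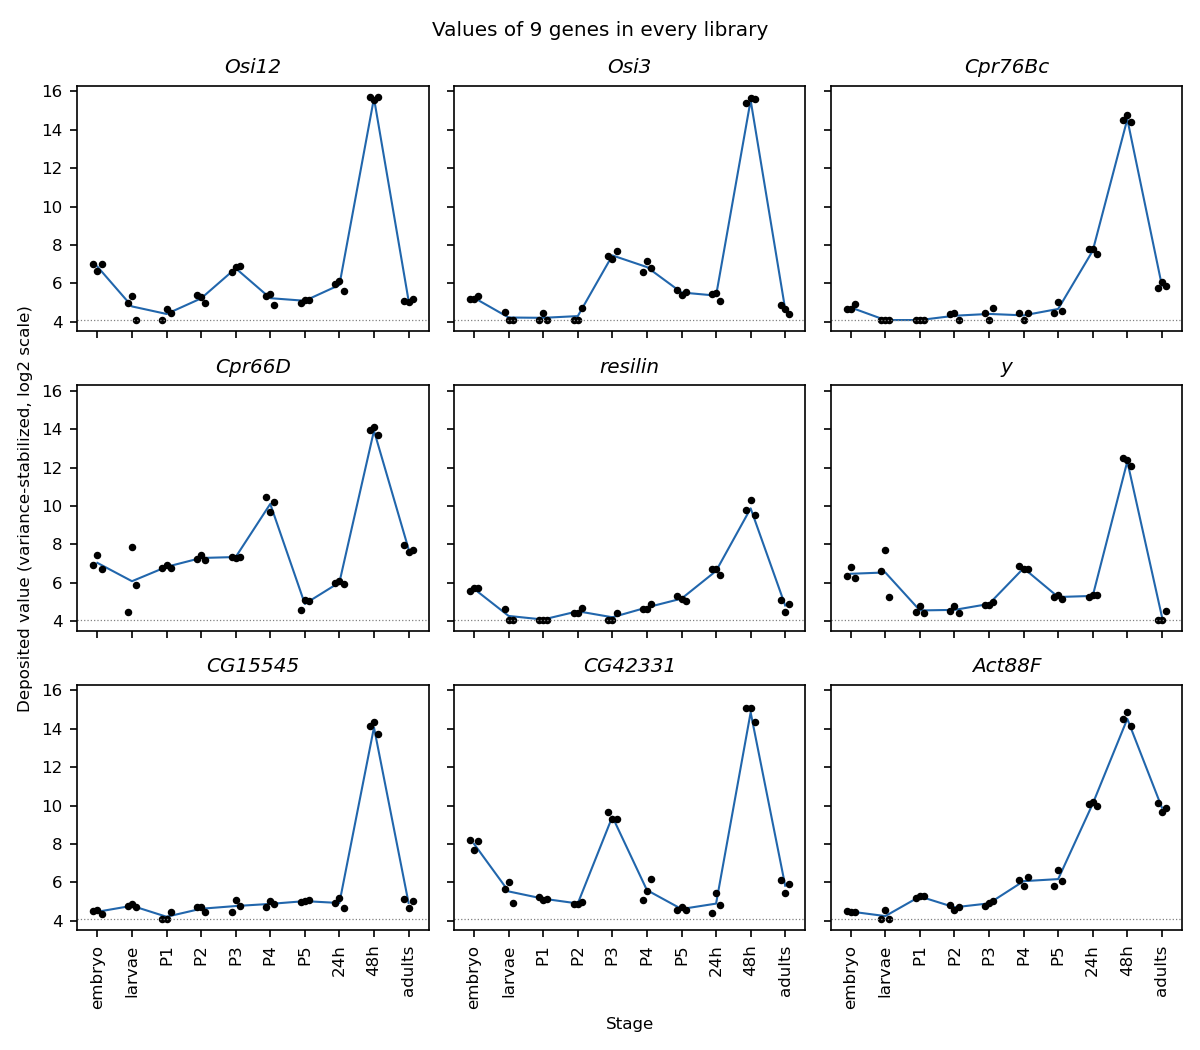
Deposited values (log2 scale) of 9 members in all 30 libraries, by stage; points are libraries, the line joins the stage means and the dotted line marks the value of no reads. All 9 are highest at 48h, Cpr66D has a lower high point at P4 and CG42331 at P3, and Act88F stays near 10 at 24h and in adults.

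Genes of pigment, bristles and apical matrix each gave 1 member from lists of other genes with such roles. *y* (yellow), needed for black melanin, had 5859, 5330 and 4267 normalized counts at 48h, between 73.2 and 85.6 at P4, between 11.8 and 13.9 at 24h, and 0, 0 and 1.8 in adults. *f* (forked), which encodes a protein of the actin bundles that shape bristles, had 1323, 1347 and 869 at 48h and 94.8 to 108 in embryos. *cyr*, a gene for a zona pellucida domain protein, had 579, 694 and 511 at 48h and 39.3 to 45.8 at P3. *ChLD3*, which encodes a chitin deacetylase-like protein, had 2664, 2955 and 1916 at 48h and 86.1 to 151 at P4. In all 4 genes the 48h libraries lay above every other library.

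A lower, earlier rise at P3 or P4 was frequent among the 100 genes. The second-highest stage in the score was P4 for 29 members, adults for 23, embryo for 17, P3 for 16, P5 for 8, larvae for 4, P1 for 2 and P2 for 1. In 27 members all P3 libraries were above all P2 and all P5 libraries, against 6.92% of all genes, and in 36 members this was true of P4, against 11% of all genes. In 47 members it was true of P3, P4 or both, against 14.8%. These stages entered the score through the highest of them, so these counts are a description of the members.

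The rise over P2 and P5 was at P3 without P4 in 11 members, among them *Osi1*, *Osi12*, *f* and *cyr*. It was at P4 without P3 in 20, among them *y*, *Cpr66Cb*, *Cpr66D*, *ChLD3* and *CG11380*. It covered both in 16, among them *Osi3*, *Osi4*, *Osi8*, *CG6280* and *St2*, a sulfotransferase gene. Other early stages could be higher still: *f* had 94.8 to 108 normalized counts in embryos and 25.6 to 75.7 at P3. *Osi4* had at most 7.0 at P3 and 3.6 at P4, near the value of no reads. *CG42331* had 764, 597 and 604 normalized counts at P3, 8.2 to 41.3 at P4, 1.9 to 3.1 at P5, and 34918, 34736 and 21231 at 48h. *CG6280* had 406, 363 and 446 at P3, 191 to 312 at P4, 19.2 to 24.8 at P5, and 26970, 28676 and 14222 at 48h. *St2* reached 2006, 1195 and 1433 at P4 and 9074, 8998 and 10636 at 48h. The P3 and P4 levels of these genes were clearly below those of 48h but well separated from the trough at P5.

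Muscle genes were represented by *Act88F*, the actin of the indirect flight muscles, with 23551, 30018 and 18070 normalized counts at 48h. It was at 27.9, 67.9 and 36.3 at P5, at 1067, 1133 and 981 at 24h and at 1074, 784 and 909 in adult males. The 24h and adult libraries overlapped and lay far from both neighbours, so the 48h level stood between 2 stages of like, lower expression. *Zasp67*, of a family of sarcomere Z-disc proteins, had 557, 521 and 402 at 48h, at most 1.4 at 24h and 42.9 to 56.0 in adults.

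Of the genes for proteins with SET and MYND domains, *SmydA-3*, *SmydA-6* and *SmydA-7* were members. *SmydA-3* had 911, 907 and 982 normalized counts at 48h and at most 3.4 at 24h, with 122 to 182 in larvae and 78.8 to 105 in adults. *SmydA-7* had 819, 916 and 873 at 48h and 67.3 to 90.9 at 24h. *SmydA-6*, its neighbour on 2R between 17044743 and 17048794, had 261, 259 and 191 at 48h and 3.6 to 7.4 at 24h. All 3 kept some expression in adults, at 6.3 to 10.6 for *SmydA-6* and 64.6 to 94.7 for *SmydA-7*.

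*Obp73a*, an odorant-binding protein gene, was the single member from 179 listed olfactory genes. It had 2223, 2528 and 2272 normalized counts at 48h and at most 4.2 in every other library, the adults included. *eEF1alpha2*, a translation elongation factor gene, was the opposite case, with high levels throughout the pupa: 4065, 4071 and 3222 at P5, 6733, 8099 and 8441 at 24h, 23715, 22444 and 17529 at 48h, and 1604 to 2668 in adults.

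The remaining members are mostly known by computed-gene symbols. Such CG numbers made up 68% of the members and 43.3% of the 13814 protein-coding genes in the annotation that are in the table, and all 100 members were protein-coding. *CG15545* (3R, 30870939 to 30872351), the gene with the top score of 9.05, had 18188, 20856 and 13334 normalized counts at 48h and at most 9.8 in each other library. *CG7031* had 11499, 11840 and 8502 at 48h, 7.2 to 8.4 at 24h and none at P5. *CG14627* had 15966, 20441 and 10159 at 48h and 5.1 to 8.0 at 24h. *CG14770* had 14300, 17003 and 15670 at 48h and 5.1 to 6.7 at 24h. Outside 48h the highest library of these 4 genes was an embryo library of *CG14770* with 29.9 normalized counts, and in adults none exceeded 12.9.

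Further members with a high score were *CG13154* (8.37), *CG13840* (7.79) and *CG14625* (7.36), which had values of 4.70, 4.36 and 4.81 at P5 and 13.08, 12.16 and 12.17 at 48h. *CG10005* was unlike them, with 10.02 at P5 and 9.58 at 24h before 13.44 at 48h. *CG3513*, the highest member per kb, had 16622, 18491 and 18697 normalized counts at 48h and already 429 to 862 at 24h.

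The members had gene structures near those of other genes. Their median coding length was 424 codons against 393 over protein-coding genes, the median number of exons of the canonical transcript was 3 in both, and 55.0% had a single annotated transcript against 49.2%. By chromosome arm, 19 were on X, 12 on 2L, 16 on 2R, 22 on 3L and 31 on 3R, where all genes were distributed as 15.8, 19.0, 20.3, 19.4 and 24.2%.

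Members tended to sit beside one another. Of the 200 genes next to a member 12 were members themselves, or 6.0%, against 0.708% of all genes, and 27 members fell into 12 groups with at most 20 kb between neighbours. The largest group was on X between 1181620 and 1207555, where *CG14627*, *CG11380*, *CG14625* and *CG14624* were 4 of the 6 genes measured. *CG7031* and *CG13840* lie together on 3R between 22804291 and 22816178, *CG15888* and *Osi22* on 3R between 13284946 and 13291846, *CG6280* and *Cpr50Ca* on 2R between 13753964 and 13787802, and *Cpr49Ah* and *CG13154* on 2R between 12413962 and 12427861. Neighbours did not always share the earlier stages: *CG11380* had 203 to 382 normalized counts at P4, whereas *CG14627* had at most 10.0.

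Reads of overlapping genes may be assigned to the wrong partner. In the annotation 76 members shared no exon sequence with another gene, 21 shared some with a gene on the other strand and 3 with a gene on the same strand. The latter were *CG13358* with *CG13359*, *Obp73a* with *Ogdh*, and *CG15506* with a long non-coding RNA. Among the 22 partners in the table, the 48h mean minus the 24h mean ran from -1.03 to 1.78 with a median of 0.20, and none was above 2. *Ogdh* differed by 1.48 where *Obp73a* differed by 6.79.

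The step from P5 to 24h asks whether the members had begun to move before their high point. The score did not use 24h, but it used P5 as 1 of the 8 stages, which favours genes that are low at P5. On the deposited scale most members had not moved much, and 59 members were within 0.5 of their P5 mean at 24h. The median member had covered 5.41% of its rise from P5 to 48h on that scale. Only *CG13081*, *dsx-c73A* and *uncNacbeta* had covered more than 50%. The share of all genes within 0.5 was not computed. Near the value of no reads this scale compresses changes in counts. *Osi11*, for example, differed by 0.42, with 0.9 to 1.0 normalized counts at P5 and 3.3 to 5.9 at 24h. In a limma fit to all genes, with the 2nd-instar library left out of the fit and Benjamini-Hochberg adjustment, 27 members were called higher at 24h than at P5 (4.38% of all 14047 genes tested) and 4 lower (7.36% of all genes). The other 69 were not called. An unadjusted p under 0.05 was found in 45 of the 100, but the share over all genes at that threshold was not computed. P5 was the stage subtracted in the score for 8 members, *CG15545*, *CG13154*, *CG13840*, *CG14625*, *CG13720*, *uncNacbeta*, *CG10005* and *eEF1alpha2*, of which 4 were among those called higher, and their differences are given below as a description. When P5 was left out of the score, an alternative added after seeing the data in which neither stage entered the choice, the new top 100 shared 90 genes with the members and had 31 called higher and 5 lower.

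The difference of 24h from P5 was positive in 66 members, negative in 33 and 0 in 1, with a median of 0.28 against -0.01 over all genes. In the 100 genes chosen without P5 in the score the difference was positive in 69, negative in 30 and 0 in 1, with a median of 0.35. In 46 members all 24h libraries were above all P5 libraries, and in 13 all were below. The shares over all genes were not computed, so these 2 counts only describe the members. Of the 27 members called higher, 15 differed by more than 1 unit. Leaving out 1 library at a time gave 18 to 25 members called higher, with 18 when 24h replicate 2 was left out, and 2 to 4 called lower, with 2 when 24h replicate 2 or 3 or P5 replicate 1 or 3 was left out.

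The members that rose most between P5 and 24h were of mixed kinds. *Act88F* rose by 3.93 (SE 0.19, limma adjusted p = 2.34e-12). *dsx-c73A* rose by 3.62 (SE 0.30, limma adjusted p = 4.56e-09), from 16.3, 57.5 and 29.2 normalized counts at P5 to 922, 773 and 510 at 24h, on the way to 3176, 3081 and 1936 at 48h. *Cpr76Bc* rose by 3.03 (SE 0.18, limma adjusted p = 2.35e-11). In these 3 genes the P5 and 24h libraries did not overlap.

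*uncNacbeta*, for which P5 was the stage subtracted in the score, was 2.96 higher at 24h (SE 0.52), going from 487, 598 and 769 normalized counts at P5 to 5702, 4741 and 4507 at 24h. *CG13081* rose by 2.93 (SE 0.24, limma adjusted p = 3.28e-09), from 1.9, 12.5 and 1.8 to 172, 244 and 140, and then reached 388, 515 and 417 at 48h. For these 2 genes the larger part of the climb on the log2 scale was over by 24h, though not in normalized counts.

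The cuticle proteins were divided. *Cpr49Ah* rose by 2.17 (SE 0.44, adjusted p = 0.00125), *resilin* by 1.44 (SE 0.19, adjusted p = 5.71e-06) and *Cpr66D* by 1.12 (SE 0.26, adjusted p = 0.00418), all from limma. The *Cpr49Ah* call was lost on the log2(normalized count + 1) scale (adjusted p = 0.0747), and that of *Cpr66D* when the 2nd-instar library was put back (adjusted p = 0.123). The differences of *Cpr50Ca*, *Cpr72Ec* and *Cpr66Cb* were 0.50, 0.09 and -0.17 and did not pass the test (adjusted p = 0.164, 0.899 and 0.755). In the whole list of cuticle proteins 9 of 130 were higher, or 6.92%, and 26 lower, or 20%. The shares over all genes were 4.38 and 7.36%. The 9 were the members *Cpr49Ah*, *resilin*, *Cpr66D* and *Cpr76Bc*, chosen by the score, and 5 genes that were not members. The higher share of the list therefore does not show that cuticle proteins outside the members rose more often than all genes. All 26 lower genes were outside the members. The median of the list was -0.13 against -0.01 over all genes. Its extremes among the genes that were not members were *Cpr100A* at -5.22 and *Cpr49Ae* at 2.91.

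In the Osiris family 3 members rose: *Osi1* by 1.16 (SE 0.16, limma adjusted p = 1.28e-05), *Osi12* by 0.82 (SE 0.21, limma adjusted p = 0.011) and *Osi4* by 0.58 (SE 0.18, limma adjusted p = 0.0415). The *Osi12* call was lost without 24h replicate 2 (0.71, adjusted p = 0.0731) and without P5 replicate 1 (0.77, adjusted p = 0.0573), and that of *Osi4* without 24h replicate 2 (0.41, adjusted p = 0.254), 24h replicate 3 (0.63, adjusted p = 0.0732), P5 replicate 2 (0.52, adjusted p = 0.139) or P5 replicate 3 (0.52, adjusted p = 0.142). *Osi4* also lost its call when only P5, 24h and 48h libraries were fitted (limma adjusted p = 0.0762). On the log2(normalized count + 10) scale it was lost too (limma adjusted p = 0.0583). The other 5 members, *Osi3*, *Osi8*, *Osi11*, *Osi21* and *Osi22*, had differences between -0.16 and 0.42 and were not called in the main fit. *Osi11* was called higher with quantile normalization (0.55, limma adjusted p = 0.0101) and on the log2(normalized count + 1) scale (1.58, limma adjusted p = 0.0364). None of the 15 Osiris genes outside the members was called higher, and 4 were called lower, *Osi2*, *Osi7*, *Osi14* and *Osi19*, with *Osi2* at -1.76 (limma adjusted p = 2.12e-06). The family median was -0.14.

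**Figure D5:**
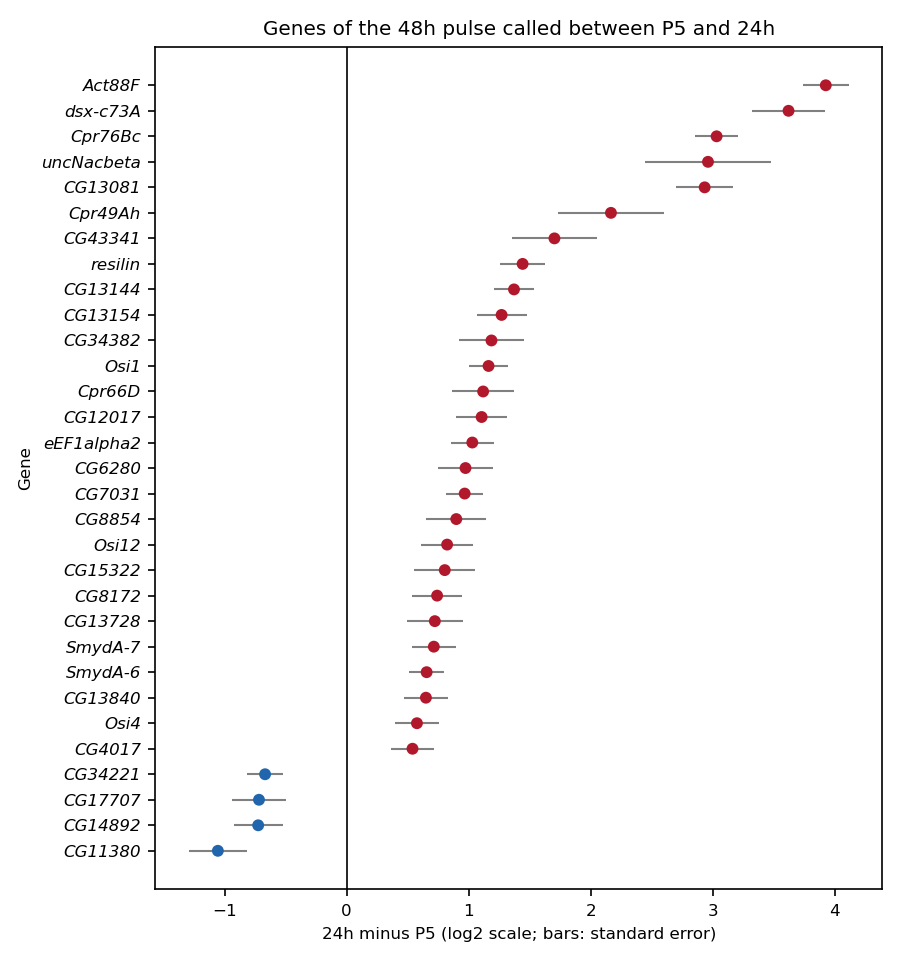
Difference of the 24h mean from the P5 mean (log2 scale) for the 31 members past the threshold, of which 4 (uncNacbeta, CG13154, eEF1alpha2 and CG13840) had P5 as the stage subtracted in their score, with the standard error from limma as bars; red marks genes higher and blue genes lower at 24h. Act88F, dsx-c73A and Cpr76Bc lead with 3.93, 3.62 and 3.03, and the 4 genes on the lower side lie between -1.05 and -0.67.

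Among the remaining named genes, *y*, *f* and *cyr* differed by 0.06, 0.48 and 0.21 and were not called (limma adjusted p = 0.951, 0.209 and 0.45), and neither was *Obp73a* at -0.01. *SmydA-7* and *SmydA-6* were called higher by 0.71 and 0.66, *CG7031* by 0.97 and *CG6280* by 0.97 (limma adjusted p = 0.00987, 0.00283, 8.43e-05 and 0.0048). Among the genes for which P5 was the stage subtracted in the score, the differences were 1.27 in *CG13154*, 1.03 in *eEF1alpha2* and 0.65 in *CG13840*. The gene with the highest score, *CG15545*, is also of this kind and differed by -0.10.

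The P4 means of the 4 members called lower ran from 4.99 in *CG14892*, below its P5 mean of 5.25, to 8.59 in *CG17707*. *CG11380* fell by 1.05 (SE 0.24, limma adjusted p = 0.00404), from 80.8, 67.9 and 83.3 normalized counts at P5 to 39.6, 17.2 and 18.1 at 24h, before reaching 5897, 5414 and 3398 at 48h. *CG14892* fell by 0.72, *CG17707* by 0.72 and *CG34221* by 0.67 (limma adjusted p = 0.017, 0.0359 and 0.00327). The *CG11380* call was lost when the 2nd-instar library was put back (limma adjusted p = 0.061). That of *CG34221* was lost with quantile normalization (limma adjusted p = 0.0762). Without 24h replicate 2 or 3 or P5 replicate 1 or 3 the adjusted p of *CG14892* was 0.055 to 0.0876 and that of *CG17707* 0.076 to 0.18, and *CG17707* was also lost without 24h replicate 1 (0.0502).

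Other gene groups gave few members or none, and their calls over the same step are read against 4.38% higher and 7.36% lower over all genes. Of 14 zona pellucida genes 4 were higher (28.6%) and 2 lower (14.3%), of 15 bristle and hair genes 4 were higher (26.7%) and 1 lower (6.67%), and of 23 muscle genes 8 were higher (34.8%) and 2 lower (8.70%), with medians of 0.29, 0.36 and 0.40. Of 23 tanning genes 1 was higher (4.35%, near the share of all genes) and 6 lower (26.1%), with a median of -0.11, and of 177 olfactory genes 7 were higher (3.95%, also near it) and 3 lower (1.69%), with a median of 0. The list of 37 genes of chitin synthesis, deacetylation, binding and turnover, in which *ChLD3* does not appear, held no member, with 2 higher (5.41%) and 16 lower (43.2%) and a median of -0.76, and 1 of them had its highest mean at 48h. Lists for cuticle lipids, ecdysone signalling, photoreceptors, neurons, testis, fat body, blood cells, gut, ecdysis neuropeptides and tracheal junctions held no member either.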

How the data were processed

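The authors trimmed reads with fastp, quantified them with Kallisto against the BDGP6 transcriptome and summed transcripts per gene, and they deposited values transformed with the variance stabilization of DESeq2, on a log2 scale, per the labels and the study's methods. The kit was directional, and the strand setting of the counting is not given in the sources used here. The transformation was inverted from its value at no reads, 4.0874, which gave whole counts within 0.01 for all 219076 values under 200 counts that were checked, and hence library totals of 7350353 to 13434700 counts. These totals are above the numbers of reads per sample that the study reports, and the reason was not tested. Normalized counts are counts divided by the size factor, and their precision is limited by counting error at low values.

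Members were the 100 genes with the highest score. The members and the lists of gene symbols were chosen with earlier results of these data known. Members named in the text were those with the 12 highest scores, the 6 highest 48h values, the 5 largest and 5 lowest differences of 24h from P5, those called lower, those in a list, and ranks 98 to 100; further ones were chosen after their values were seen.

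For 24h against P5, a limma 3.58.1 model (R 4.3.3) with 1 mean per stage and a mean-variance trend was fitted to 29 libraries, without the 2nd-instar library, for the 14047 genes that varied, with a call at an adjusted p under 0.05. Tested on simulated data for this comparison (14019 genes), it recovered 80% of 100 genes changed 2-fold and 99% of 100 changed 4-fold. It also called 9 unchanged genes, 4.79% of its calls. The changed genes were drawn only from those clearly detected at P5, and the spread was assumed. The recovery therefore does not hold for the many members with few or no counts at P5. Gene positions came from the BDGP6.54 annotation. Alternatives covered scaling, filters, the count scale and left-out libraries. Nothing from *D. virilis* and no sequence was analysed here.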

Additional observations from a re-analysis of the deposited data

How the results depend on the processing

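Of the 27 members called higher and 4 called lower at 24h against P5, 16 of the former and none of the latter kept their call in every alternative fit but the filter on low values. That filter left out the genes of lowest mean, tested only 55 members and called 17 higher. Members called lower were 2 with all 30 libraries, with quantile normalization, with median centring and at an adjusted p under 0.01. Leaving out 1 library at a time gave 18 to 25 members higher and 2 to 4 lower, and over all genes 382 to 566 higher and 668 to 1032 lower, against 615 and 1034. All genes called higher fell by over 1.5 times without P5 replicate 1 (382), 24h replicate 2 (385) or 24h replicate 3 (394), and all genes called lower without P5 replicate 1 (668). All genes called higher were 1001 when only P5, 24h and 48h libraries were fitted and 1174 with quantile normalization. Of all calls, 37.3% were higher; with quantile normalization this was 54.1% and with median centring 48.8%. The cause was not tested.

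With the replicate number as a block, 26 members were higher and 4 lower. Deviations of P5 and 24h libraries with the same number correlated at -0.19, 0.34 and -0.01, and those with different numbers at -0.593 to 0.455. With 3 libraries per stage these values cannot decide whether the numbers paired the libraries.

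The rule kept 86 of the 100 members on the log2(normalized count + 1) scale, 95 or 96 without 1 replicate, and 96 to 100 under the other alternatives. With 24h among the other stages, the score of *CG18735*, just outside the members, turned to -2.70, since its 24h mean is above its 48h mean. At 24h and P5 many members had 10 counts or fewer, and differences there were not detectable at this depth unless large.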
